A study of Mus musculus with 2 samples.

Results

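The nuclei described here are differentiated neurons of the fetal mouse brain that carry many copies of Snhg11, a long noncoding RNA gene that hosts small nucleolar RNAs and is transcribed in neurons. They were chosen by the counts of a few named genes. Counts are of unique molecular identifiers (UMIs), the tags that let each captured RNA be counted once. A nucleus qualified when it had at least 500 detected genes, at most 5% of its UMIs from mitochondrially encoded genes, at least 6 UMIs of Snhg11 and at least 5 UMIs in sum of Adarb2, Cntnap5a and Cdh18. It also had to hold at most 1 UMI in sum of Gata2, Gata3, Tal1, Tfap2d, Lhx9 and Dlx6os1, at most 2 in sum of Neurod2 and Neurod6, and at most 2 of Tcf7l2, which are genes that mark other neuron groups. The rule selected 484 of 13366 nuclei, 147 of 6686 in the library labelled wildtype and 337 of 6680 in the library labelled Cav1 knockout. All levels of these 13 genes in the selected nuclei follow in part from that choice and are given as description.

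The study profiled nuclei from frozen whole brain of fetal mice that were either wildtype or knockout for Cav1, the gene of the membrane protein caveolin 1, with 1 droplet library per genotype. Strain, gestational day, sex, the kind of Cav1 allele and the number of fetuses in a library are not given in the sources used here. With 1 library for each genotype there is no replicate, so no difference between the libraries could be set against the spread between animals, and every interval below is an exact 95% interval that covers counting error only. Where values are paired, the wildtype-labelled library comes first.

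Differentiated neurons leave the cell cycle, switch off the factors of newborn neurons and take up the receptors, channels and adhesion proteins of the synapse. Adarb2 belongs to the family of RNA-editing enzymes but has no known editing activity and is a marker of some interneuron groups. Cntnap5a is a membrane protein of the neurexin superfamily, and Cdh18 is a cadherin, a calcium-dependent adhesion protein. Neurons of the brain stem, hypothalamus and telencephalon differ in the transcription factors they keep after their last division and in whether they release GABA, glutamate, glycine or a monoamine.

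The libraries held 19048835 and 22504908 UMIs, and the median nucleus past the limits held 2134 and 2366 UMIs. The labels were checked on the targeted gene in the selected neurons. Cav1, on chromosome 6 at chr6:17306140-17341451 of GRCm39, had 1 UMI in 147 and 7 UMIs in 337 of them, which is too few for any difference to be detectable, and 70 and 73 UMIs in all other nuclei, so its total did not separate the libraries by label. Genes at the locus did. Cav2, the neighbouring caveolin gene, had 1 and 84 UMIs in the selected neurons, and Gm15581, an unnamed noncoding RNA gene that runs antisense across Cav1 and Cav2, had 2 and 193 UMIs. Whether the counting used the strand is not given in the sources used here. Only if it did are reads of Gm15581 told apart from those of its antisense partners. Of the barcode sequences, 43 occurred in both libraries, and 1 and 0 selected nuclei carried such a barcode. The libraries also differed in genes of the posterior nervous system. A UMI of any of 12 Hox genes, which pattern the hindbrain and spinal cord, was found in 3 of 6539 other nuclei (0.0459%) of the wildtype-labelled library and in 296 of 6343 (4.67%) of the knockout-labelled library. Among the selected neurons the Hox genes had a UMI in 2 of 147 (1.36%, 0.165 to 4.83) and 41 of 337 (12.2%, 8.87 to 16.1).

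The selected neurons were deep nuclei. Their median UMI count was 3783 in wildtype-labelled and 4538 in knockout-labelled nuclei, and their range ran from 1622 to 10653 and from 1151 to 15047. A rule on raw UMIs is easier to meet in a deep nucleus, so they were compared with nuclei of like depth, the other nuclei whose totals lay between the 10th and the 90th percentile of the selected ones. There were 2462 and 2308 of these, with medians of 3120 and 3648 UMIs. When both sets were thinned at random to 3000 UMIs per nucleus, the median number of detected genes was 1823 and 1833 in the selected neurons against 1813 and 1823 in the nuclei of like depth, so at equal depth the sets were close in the number of genes they used.

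The markers that define the neurons were often not all found in the same nucleus. Snhg11, on chromosome 2 at chr2:158217558-158228071 of GRCm39, had a median of 12.0 and 16 UMIs per selected nucleus and reached 65 and 93. Adarb2 had a median of 3.00 and 2 UMIs but reached 82 and 111, and it had no UMI in 62 of 147 and 137 of 337 nuclei. Cntnap5a was found in 112 (76.2%) and 265 (78.6%) nuclei and Cdh18 in 91 (61.9%) and 210 (62.3%). Only 26 (17.7%) and 84 (24.9%) of the selected nuclei had a UMI of all 3 genes. Adarb2 alone brought 62 (42.2%) and 135 (40.1%) nuclei to the minimum of 5, Cntnap5a alone 57 (38.8%) and 164 (48.7%), and Cdh18 alone 34 (23.1%) and 100 (29.7%). Both Adarb2 and Cntnap5a were at 5 or more in 14 (9.52%) and 54 (16%) nuclei. The rule thus gathered nuclei that met the sum by different genes of the trio. A rule on a sum allows this, and at such low counts a gene without a UMI may still be transcribed. Whether the nuclei share 1 profile was not tested.

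The other markers given for this group, Brinp3 and Kctd16, were not part of the rule. They were named with earlier results of these data known, so their levels describe the group as well. Brinp3, a secreted neuronal protein gene, had a UMI in 69 of 147 (46.9%, 38.7 to 55.3) and 179 of 337 (53.1%, 47.6 to 58.5) selected nuclei. Kctd16, an auxiliary subunit of GABA-B receptors, had one in 44 (29.9%, 22.7 to 38.0) and 136 (40.4%, 35.1 to 45.8). As a reference for free RNA, nuclei were taken in which at least 0.5% of UMIs came from fibroblast and endothelial markers. These 53 and 87 nuclei were shallower, with medians of 2684 and 2704 UMIs, and Brinp3 had a UMI in 2 (3.77%) and 0 of them (exact upper bound 4.15%), while Kctd16 had one in 1 (1.89%) and 3 (3.45%). At 3000 UMIs per nucleus Brinp3 was found in 44.1% and 46.1% of the selected nuclei and in 0 of 19 and 0 of 38 reference nuclei. Snhg11 itself had a UMI in 5 (9.43%) and 13 (14.9%) of the reference nuclei, and in every selected nucleus by the rule. Brinp3 and Kctd16 were thus found more often in the selected than in the reference nuclei, but neither was a property of every selected neuron. The reference sets were small, and the amount of free RNA was not measured.

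At the edge of the rule Meg3 was at like levels inside and outside, whereas genes with fewer UMIs differed widely over these small sets. In the 12 and 14 selected nuclei with exactly 6 Snhg11 UMIs, Meg3 stood at 6580 and 6626 CPM (the UMIs of a gene over all UMIs of the summed nuclei, scaled to 1e+06), and in the 11 and 25 nuclei that failed only by having 5 it stood at 5691 and 5679. With the trio sum at 5, Meg3 was at 7591 and 8211 CPM over 26 and 43 nuclei, and with the sum at 4, just outside, at 7500 and 8006 CPM over 20 and 49. Brinp3 stood at 522 and 1333 CPM with 6 Snhg11 UMIs and at 357 and 128 with 5, and at 283 and 309 CPM with the trio sum at 5 and 199 and 411 with the sum at 4. Kctd16 stood at 235 and 199 CPM with 6 Snhg11 UMIs against 22.3 and 372 with 5, and at 234 and 140 CPM with the trio sum at 5 against 66.3 and 173 with the sum at 4. In the wildtype-labelled library both markers were thus lower just outside either limit, and in the other library the direction varied. Gad2 ran from 152 to 392 CPM and Slc17a6 from 0 to 186 CPM over these sets. Of all nuclei with 6 or more Snhg11 UMIs, 739 and 1149, the selected ones made up 147 (19.9%) and 337 (29.3%), while 198 (26.8%) and 328 (28.5%) failed only by the trio sum.

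The share of nuclei that met the rule differed between the libraries. It was 2.20% (147 of 6686, 1.86 to 2.58) in wildtype-labelled nuclei and 5.04% (337 of 6680, 4.53 to 5.6) in knockout-labelled ones, a difference of 2.85 percentage points (2.22 to 3.49). Among nuclei with at least 3000 UMIs the shares were 6.42% (111 of 1730) and 12.4% (282 of 2283). When those nuclei were thinned to 3000 UMIs before the rule was applied, 5.2% (90 of 1730, 4.20 to 6.36) and 10.1% (230 of 2283, 8.87 to 11.4) still met it, 1.94 times as many in the knockout-labelled library, so the difference was also present at equal depth. Without nuclei that had a UMI of a Hox gene or of the glycine transporter gene Slc6a5, which were set aside only once the data had been seen, the gap came to 2.37 points (1.75 to 3.00). Hox UMIs are too sparse to remove every posterior nucleus, and the share of the difference that rests on the parts of the brain sampled was not tested.

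**Figure D1:**
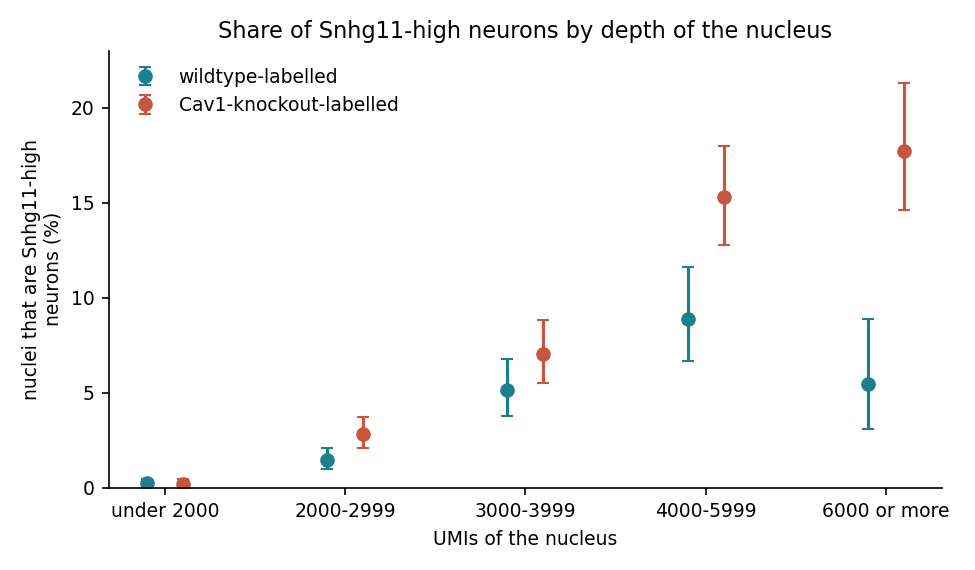
Share of Snhg11-high neurons in percent (vertical axis) among nuclei grouped by their UMI count (horizontal axis), with exact 95% binomial intervals as bars, for the wildtype-labelled (teal) and knockout-labelled (red) library. The shares are alike under 2000 UMIs (0.233% and 0.225%) and lie furthest apart at 6000 or more (5.49% and 17.7%).

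The difference was not of 1 size over the range of depth, as the plot of shares by depth shows. Under 2000 UMIs 7 of 3002 and 6 of 2669 nuclei met the rule. From 2000 to under 3000 UMIs the shares were 1.48% (0.996 to 2.12) and 2.84% (2.11 to 3.73). From 3000 to under 4000 UMIs the shares were 5.14% (3.79 to 6.80) and 7.03% (5.5 to 8.83), with overlapping intervals. From 4000 to under 6000 UMIs they were 8.90% (6.68 to 11.6) and 15.3% (12.8 to 18), and at 6000 or more 5.49% (15 of 273) and 17.7% (93 of 524). The knockout-labelled share was thus the higher one in each range from 2000 UMIs up, and the gap in percentage points was largest at 6000 or more. Deep nuclei can be 2 nuclei in 1 droplet. Of the selected neurons, 6 of 147 (4.08%) and 32 of 337 (9.50%) were among the 8% of nuclei with the highest doublet scores of their library, and with those nuclei removed the difference in share was 2.67 points.

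Compared with nuclei of like depth, the selected neurons were rich in transcripts of receptors, channels and adhesion proteins and poor in transcription factors of the telencephalon and in genes of dividing cells. A gene was called higher or lower when it lay past 2-fold in the same direction in both libraries, among genes with at least 100 UMIs over the compared sums of both libraries and 20 in each library. Of 13410 genes, 232 were higher (1.73%) and 579 were lower (4.32%). With the added condition, chosen after seeing the data, that the counting interval excludes 0 in both libraries, 213 were higher (1.59%) and 388 lower (2.89%). The median log2 ratio over all genes was -0.13 and -0.09, and 26.5% of the genes lay above 0 and 45.1% below 0 in both libraries, shares against which the counts for gene lists that follow can be read. Since the same counts chose the nuclei, these ratios describe the group and test nothing.

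**Figure D2:**
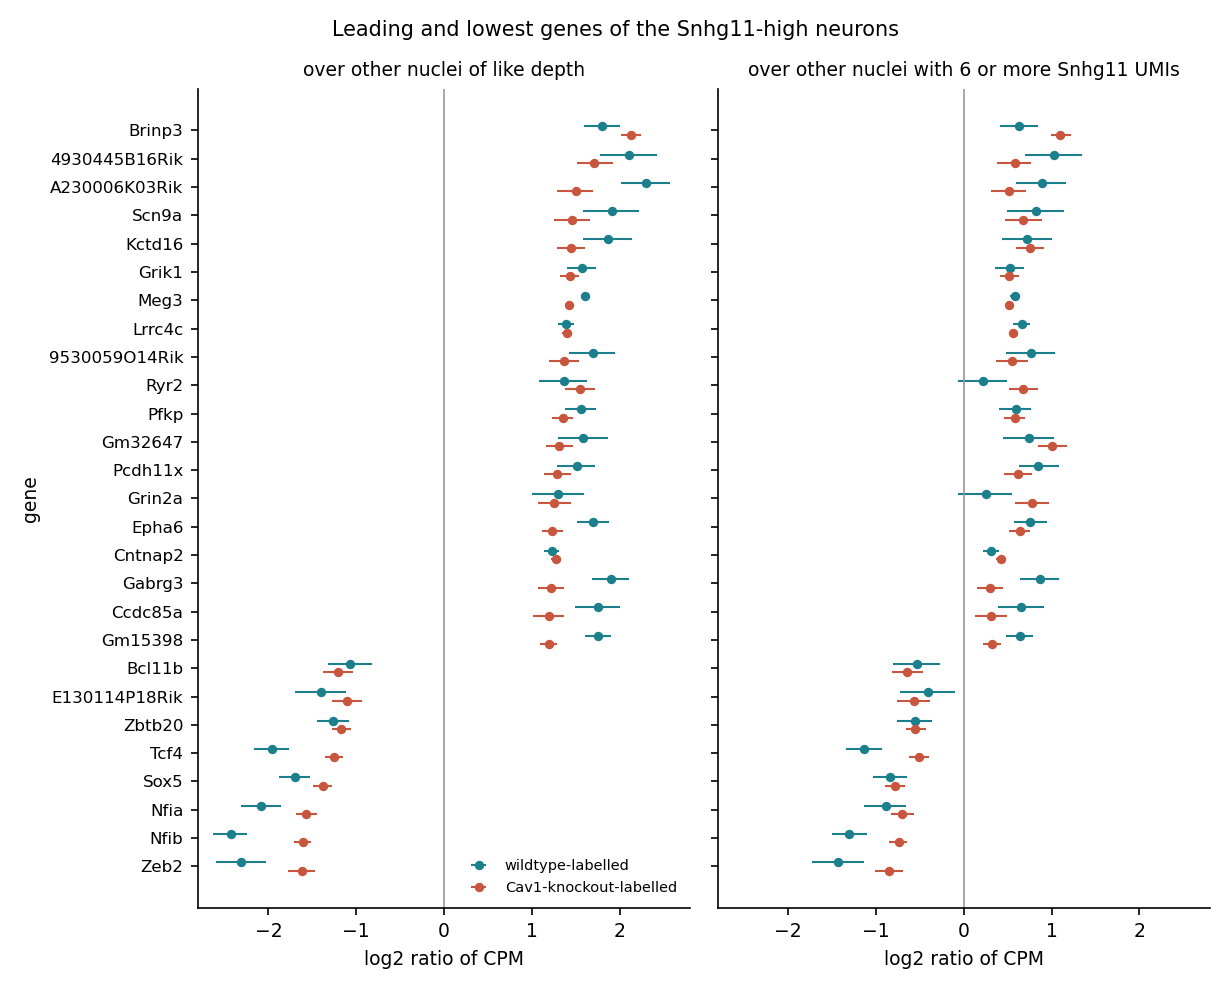
Log2 ratio of CPM in Snhg11-high neurons over other nuclei of like depth (left) and over other nuclei with at least 6 Snhg11 UMIs (right) for 19 of the 20 leading and the 8 lowest genes, with exact 95% counting intervals as bars and the libraries in teal and red. All 27 genes drawn keep their direction against both references, but the ratios on the right are smaller. Both sides use the sums of the selected neurons by which the genes were picked.

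Brinp3 had the highest ratio, by the lower of its values in the libraries, among genes outside the rule with at least 100 UMIs in the selected neurons of each library, and genes with fewer UMIs such as Cdh9 lay higher. It is at chr1:146370498-146780462 of GRCm39 and stood at 399 and 650 CPM in the selected neurons against 115 and 149 CPM in the nuclei of like depth, log2 ratios of 1.80 (1.59 to 2) and 2.13 (2.01 to 2.24). Kctd16 stood at 230 and 286 CPM against 63.1 and 106 CPM, log2 ratios of 1.86 and 1.44. Both were thus higher in the selected neurons of each library, which describes the group, since they were given as its markers with earlier results known. Meg3, a maternally expressed noncoding RNA gene at chr12:109506877-109538165 that is used as a marker of neurons in nuclear data, stood at 8161 and 8871 CPM against 2684 and 3322 CPM, 3.04-fold and 2.67-fold. It was found in 146 of 147 and 337 of 337 selected nuclei, with a median of 29.0 and 37.0 UMIs, and the nuclei of like depth had medians of 5 and 9. A UMI of Meg3 was also found in 47.2% and 59.8% of the reference nuclei. Whether it was free RNA or was transcribed in those nuclei was not tested. Rian and Mirg, the noncoding RNA genes that follow Meg3 on the same strand of that imprinted cluster, were also called higher, with log2 ratios of 1.36 and 1.09 for Rian and 1.08 and 1.22 for Mirg. Of 17 imprinted genes that could be compared, these 3 were the only ones called higher, 0 were called lower, and the list's median log2 ratio was 0.75 in both libraries. Ube3a, a ubiquitin ligase gene, stood just under the limit in 1 library, with log2 ratios of 1.03 and 0.88.

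The start regions of Snhg11, which chose the nuclei, and of Meg3, found in all but 1 of them, run from 250 bases before to 50 bases after the transcription start (for Meg3 the first of those listed) as annotated in RefSeq on GRCm38.p6. Capitals mark matches on either strand to 3 short motifs, the cyclic AMP response element TGACGTCA, the E-box CAGCTG and the box CCAAT.
Snhg11, chr2:158375463-158375762, plus strand: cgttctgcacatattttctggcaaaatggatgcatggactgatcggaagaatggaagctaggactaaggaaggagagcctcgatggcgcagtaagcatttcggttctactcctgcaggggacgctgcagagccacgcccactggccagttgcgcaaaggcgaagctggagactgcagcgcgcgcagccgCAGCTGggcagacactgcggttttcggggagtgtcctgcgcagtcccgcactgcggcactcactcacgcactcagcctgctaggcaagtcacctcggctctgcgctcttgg
Meg3, chr12:109540746-109541045, plus strand: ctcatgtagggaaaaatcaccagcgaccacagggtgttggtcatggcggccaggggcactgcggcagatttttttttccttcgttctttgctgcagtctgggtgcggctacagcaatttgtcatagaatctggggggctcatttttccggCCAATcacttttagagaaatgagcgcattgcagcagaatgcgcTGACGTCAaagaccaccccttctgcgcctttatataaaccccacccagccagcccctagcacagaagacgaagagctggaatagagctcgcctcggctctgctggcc
The Snhg11 window held the E-box, which 16.3% of 32851 RefSeq promoter windows of the same length hold, and the Meg3 window held the cyclic AMP response element, which 1.79% hold, and the box CCAAT, which 37.4% hold. The Snhg11 window was 60.0% G and C with 21 CG pairs and that of Meg3 53.7% with 13, against medians of 52.7% and 7 over all windows. These matches describe the letters of the windows and nothing was measured on them here.

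Receptors of fast transmission were mostly above the nuclei of like depth. Of 22 glutamate receptor genes with enough UMIs, 20 had ratios above 0 in both libraries (26.5% of all 13410 genes did), 4 were called higher (1.73% of all genes were) and 0 lower, and the list's median log2 ratio was 0.93 and 0.66 against -0.13 and -0.09. The kainate receptor subunit Grik1 stood at 630 and 557 CPM against 213 and 206 CPM, and the NMDA receptor subunits Grin2a and Grin3a had log2 ratios of 1.30 and 1.25, and of 1.5 and 1.18. Gria2, the AMPA receptor subunit that limits calcium entry, was not among them, with 1234 and 1155 CPM against 1437 and 1331 CPM. Receptor genes thus differed within the family.

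Among 18 GABA and glycine receptor genes, 17 had ratios above 0 in both libraries, and 2 were called higher, with median log2 ratios of 0.80 and 0.60. Gabrg3, a gamma subunit of the GABA-A receptor, stood at 387 and 320 CPM against 104 and 138 CPM. Gabra5, an alpha subunit, stood at 23.5 and 45.6 CPM against 9.43 and 15.4 CPM. Of 21 sodium and calcium channel genes, 19 had ratios above 0 in both libraries, but only Scn9a, a voltage-gated sodium channel, was called higher, at 178 and 175 CPM against 47.4 and 63.8 CPM. Ryr2, a calcium release channel of the endoplasmic reticulum, stood at 218 and 266 CPM against 84.8 and 90.8 CPM. Kcnj6, a potassium channel opened by G proteins, was called higher beside Kctd16 among 29 potassium channel and partner genes. These groups shared the direction of the glutamate receptors, with few members past 2-fold.

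**Figure D3:**
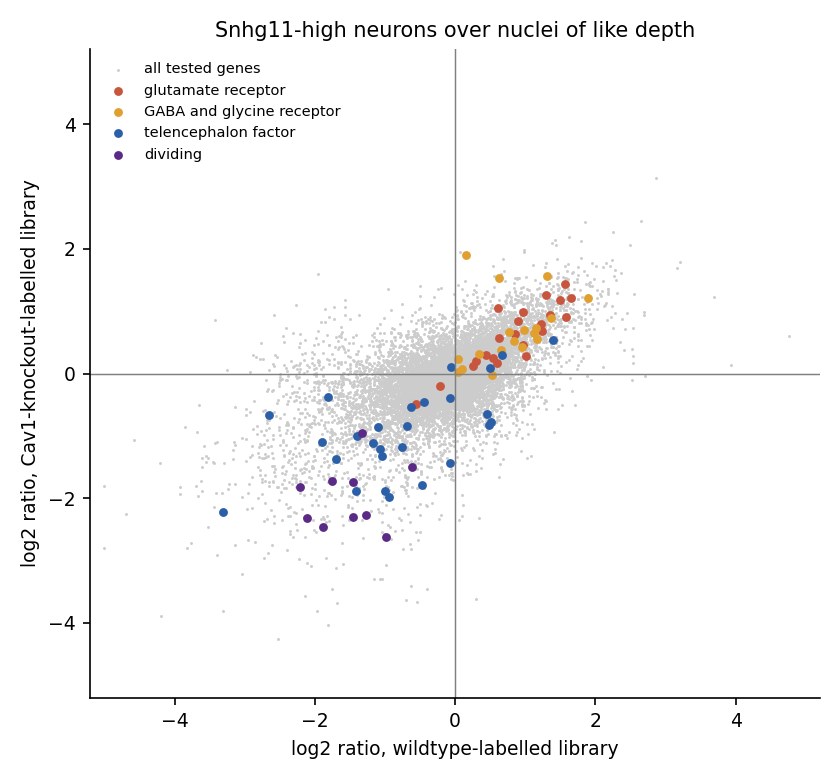
Log2 ratio of CPM in Snhg11-high neurons over nuclei of like depth for 13205 genes, wildtype-labelled library (horizontal axis) against knockout-labelled library (vertical axis), with values beyond 5 drawn at 5 and the 205 compared genes that were at 0 in a sum left out. Glutamate receptor genes (red) and GABA and glycine receptor genes (orange) lie mostly in the upper right, telencephalon factors (blue) and genes of dividing cells (purple) mostly in the lower left.

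Adhesion genes were also among those called higher. Cntnap2, at chr6:45036291-47281147, stood at 2176 and 2547 CPM against 930 and 1057 CPM. Cntn6 was also called higher, with log2 ratios of 1.32 and 1.05, and Cntn2, which is known from early axons, was called lower, at 36.9 and 46.2 CPM against 152 and 133 CPM. Of 11 genes of the contactin list outside the rule, 9 had ratios above 0 in both libraries, with median log2 ratios of 1.20 and 0.82. Lrrc4c, the netrin-G1 ligand, stood at 1906 and 2116 CPM against 727 and 800 CPM. The gene 4930445B16Rik, which lies antisense within Lrrc4c, stood at 186 and 187 CPM against 43.3 and 57.0 CPM. Reads of this pair are told apart only if the counting used the strand. The protocadherin gene Pcdh11x had log2 ratios of 1.51 and 1.29. The ephrin receptor gene Epha6 had log2 ratios of 1.70 and 1.23. It was the only one called higher of 29 axon guidance genes, of which 10 lay above and 11 below 0 in both libraries. Of 29 neurexin and partner genes 2 were called higher, with 22 above and 3 below 0. Of 13 cadherin genes outside the rule 2 were called higher, with 9 above and 3 below 0. Cdh9, a cadherin gene like Cdh18 of the rule, stood at 122 and 172 CPM against 21.8 and 41.4 CPM and was found in 22 of 147 and 70 of 337 nuclei.

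Genes for release of transmitter were closer to the reference than the receptors. Of 24 such genes, 18 had ratios above 0 in both libraries and 1 was called higher, Unc13c, a priming factor of synaptic vesicles, with log2 ratios of 1.32 and 1.16. General neuron genes such as Map2, with log2 ratios of -0.14 and -0.09, and Dcx, with -0.08 and -0.09, lay near 0. Pfkp, the platelet form of phosphofructokinase, was the only one of 19 glycolysis genes called higher, at 523 and 508 CPM against 178 and 199 CPM, and the list's median was 0.01 in both libraries. The glucose transporter gene Slc2a1 was called lower at 8.38 and 13.6 CPM against 21.8 and 29.1 CPM.

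Of the 8 lowest genes, all but 1 encode transcription factors. The exception, E130114P18Rik, overlaps Nfia on the opposite strand, so their reads are told apart only if the counting used the strand. Zeb2, a zinc finger factor of migrating cortical neurons and interneurons, stood at 174 and 221 CPM in the selected neurons against 865 and 681 CPM. Nfib stood at 367 and 553 CPM against 1979 and 1692 CPM and Nfia at 277 and 335 CPM against 1170 and 994 CPM. Both are nuclear factor I genes of late progenitors and their neurons. Sox5 and Bcl11b, known from deep-layer cortical neurons, had log2 ratios of -1.70 and -1.38 and of -1.07 and -1.21. Of 28 telencephalon factors outside the rule, 8 were called lower, among them Lhx6, Tbr1, Bcl11b, Fezf2, Sox5 and Prox1, and 0 higher, with a median log2 ratio of -0.85 in both libraries. Neurod2, Neurod6 and Dlx6os1, telencephalic genes as well, were limited by the rule.

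Genes of dividing cells had ratios below 0 in both libraries in 10 of 10 cases, 7 of them called lower, with medians of -1.46 and -2.04. Of 13 immature neuron genes, 12 had ratios below 0 in both libraries and 1 above, with medians of -0.68 and -0.42. Only 3 were called lower, among them Igfbpl1, at 154 and 185 CPM against 492 and 493 CPM. Dcx, also on this list, lay near 0. Markers of other cell types varied. The 10 endothelial markers summed to 38.6 and 86.4 CPM against 118 and 175 CPM. The 10 fibroblast markers summed to 46.9 and 42.0 CPM against 139 and 156 CPM. Choroid plexus markers were at 332 and 251 CPM against 440 and 507 CPM. Closer to the nuclei of like depth were the 9 microglia markers, at 98.9 and 120 CPM against 115 and 100 CPM. Astrocyte markers were close as well, at 144 and 180 CPM against 156 and 192 CPM. Genes at 0 numbered 3 and 0 of the endothelial, 2 and 0 of the fibroblast and 2 and 3 of the microglia markers. Haemoglobin RNA was common, with a UMI of Hbb-bs in 77.6% and 65.6% of the selected and 67.9% and 71.3% of the reference nuclei. The label of differentiated neurons thus matched the direction of most of these markers. Genes of division were low, and those of the newborn state were mostly below the nuclei of like depth by less than 2-fold.

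Factors of regions behind the telencephalon were found in small subsets. Lhx1, a factor of several hindbrain, midbrain and hypothalamic neuron groups, had a UMI in 28 (19%) and 84 (24.9%) selected nuclei, and in 1 nucleus of each free-RNA reference set. Sim1, a factor of the hypothalamus and spinal cord, was found in 5 and 24 nuclei, at 16.8 and 46.8 CPM against 4.96 and 14.4 CPM. Lmx1b, a factor of monoamine neurons and of the dorsal cord, was found in 11 and 22 nuclei, and En1, which marks the midbrain and hindbrain, in 5 and 22. These 4 genes were called higher. By list, 3 of 8 hypothalamus factors were called higher and 0 lower, with 5 above and 2 below 0 in both libraries. Of 14 midbrain factors 2 were called higher and Pax3 lower, with 5 above and 5 below 0. Of 12 thalamus factors 0 were called higher, and Lef1 and Prox1 were called lower, with 2 above and 8 below 0. Lmx1b is in both of the first lists, and the regional lists thus had no common direction. Otx2, which marks the forebrain and midbrain, was found in 8 and 21 nuclei, with log2 ratios of -0.99 and -0.78. Each of these factors thus had no UMI in most of the selected neurons.

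Much of this profile was shared with other Snhg11-rich neurons. The selected neurons were also set against the 592 and 812 other nuclei with at least 6 Snhg11 UMIs, which had medians of 3820 and 4341 UMIs. Of 11081 genes, 5 were then higher (0.0451%) and 62 lower (0.560%) past 2-fold in both libraries, in place of 232 and 579. All 20 leading genes kept ratios above 0 in both libraries, from 0.22 to 1.10 on the log2 scale, with intervals above 0 in both for 18 of them, all but Ryr2 and Grin2a. All 8 lowest genes kept ratios below 0, from -1.43 to -0.41. The median over all compared genes was -0.05 and -0.01. The leading and lowest genes were picked by the same sums of the selected neurons, so their directions here follow in part from that choice. The 5 higher genes, named after their values were seen, were Cdh9, at 122 and 172 CPM against 42.4 and 50 CPM, and Lncenc1, Gm48261, Gm48260 and Gm49127, with 11 to 49 UMIs per library. Gm49127 lies antisense to Cdh9, so the reads of this pair are told apart only if the counting used the strand. Tiam2 and Prox1 were among the 62 lower ones, Tiam2 at 83.8 and 96.5 CPM against 271 and 232 CPM. The rule kept out nuclei with UMIs of cortical, thalamic and midbrain genes, and what followed from that exclusion cannot be told apart from what followed from the trio.

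The leading genes were long. Their median gene length was 402 kb against 29.0 kb over 13353 genes with a length in the annotation. Genes of at least 500 kb had median log2 ratios of 0.35 and 0.29, and 24 of 223 were called higher and 9 lower, while genes under 50 kb had medians of -0.15 and -0.11, with 97 of 8851 higher and 302 lower. Nuclear RNA holds many unspliced transcripts, and whether intronic reads were counted is not given in the sources used here. The part of gene length in these ratios was not tested.

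Transmitter genes divided the selected neurons. A nucleus was called GABA-marked with at least 2 UMIs in sum of Gad1 and Gad2, which make GABA, and Slc32a1, which loads it into vesicles, and glutamate-marked with at least 2 of the vesicular glutamate transporter genes Slc17a6, Slc17a7 and Slc17a8. GABA-marked were 51 of 147 (34.7%, 27.0 to 43.0) and 106 of 337 (31.5%, 26.5 to 36.7), and glutamate-marked were 26 (17.7%, 11.9 to 24.8) and 43 (12.8%, 9.39 to 16.8). Both marks were met by 1 and 7 nuclei, and 69 (46.9%) and 181 (53.7%) met neither. In the nuclei of like depth the GABA mark was met by 20.5% and 24.4% and the glutamate mark by 9.42% and 12.7%. At 3000 UMIs per nucleus these shares were 18.6% and 21.5% for the GABA mark and 7.86% and 9.96% for the glutamate mark. The selected neurons were thus a mixture of transmitter types in both libraries.

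**Figure D4:**
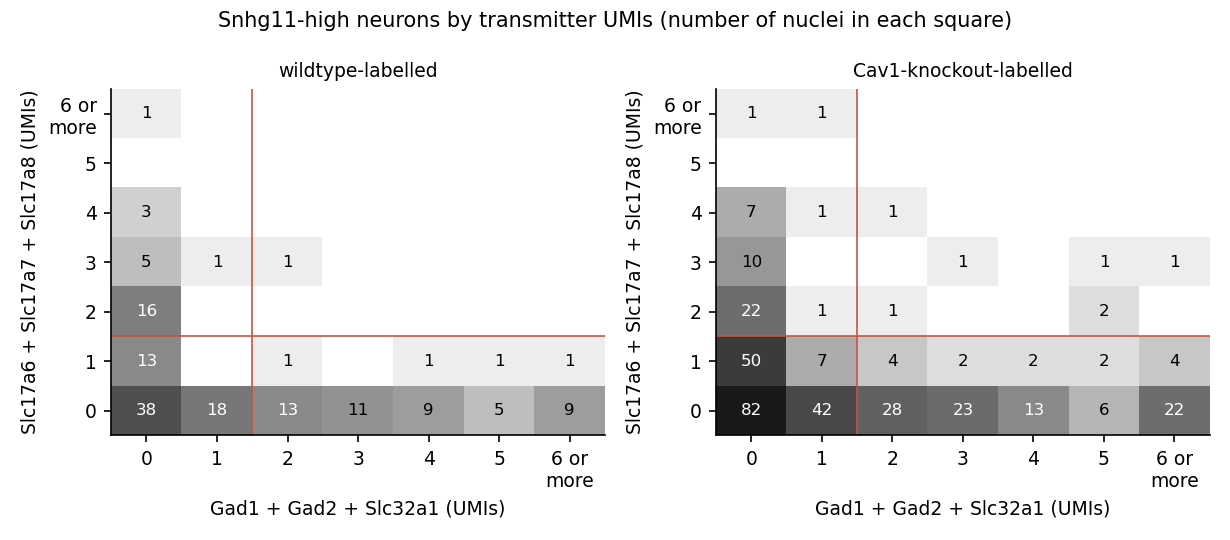
Number of Snhg11-high neurons by the summed UMIs of the GABA genes (horizontal axis) and of the vesicular glutamate transporter genes (vertical axis), wildtype-labelled library on the left and knockout-labelled on the right. Red lines mark the minimum of 2 UMIs: nuclei lie along the axes, with 1 and 7 past both lines, and 38 and 82 have no UMI of either kind.

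The marks depended on depth. At 3000 UMIs per nucleus the GABA mark was met by 28.8% (20.6 to 38.2) and 23% (18.3 to 28.4) and the glutamate mark by 15.3% (9.18 to 23.4) and 6.74% (4.10 to 10.3) of 111 and 282 selected nuclei. At that depth the shares for both marks were above those of nuclei of like depth in the wildtype-labelled library, with intervals that overlapped at their ends. In knockout-labelled nuclei the GABA mark differed by less than its interval and the glutamate mark was the less frequent one in the selected neurons, with overlapping intervals. The order of the classes was the same in both libraries and at both depths, and a nucleus without a mark may still express a transmitter gene below detection. A UMI of Gad2 was found in 3.77% and 9.20% of the reference nuclei, against 40.1% and 37.1% of the selected neurons. For Slc17a6 the shares were 3.77% and 5.75% against 28.6% and 33.5%. At 3000 UMIs per nucleus Gad2 was found in 0 of 19 and 2 of 38 reference nuclei against 35.1% and 29.8% of the selected, and Slc17a6 in 2 of 19 and 4 of 38 (10.5% in both) against 27.0% and 23.8%. The gap to the reference nuclei was thus smaller for Slc17a6 at equal depth than in the raw counts.

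The trio of the rule did not assign the transmitter. Of nuclei with at least 5 Adarb2 UMIs, 20 of 62 (32.3%, 20.9 to 45.3) and 58 of 135 (43.0%, 34.5 to 51.8) were GABA-marked, against 16 of 62 (25.8%, 15.5 to 38.5) and 35 of 137 (25.5%, 18.5 to 33.7) of those with no Adarb2 UMI. The intervals were apart in the knockout-labelled library and overlapped in the wildtype-labelled one. Of nuclei with at least 5 UMIs of Cntnap5a, 26.3% and 31.7% were GABA-marked, and of those with at least 5 of Cdh18, 29.4% and 31%. Glutamate-marked nuclei were found beside each of the 3 genes, at 10.4% to 26.5%.

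Other transmitters were rare. Slc6a5, which marks glycine neurons, had a UMI in 1 of 147 and 20 of 337 selected nuclei, at 1.68 and 17.2 CPM. A UMI of Chat, Slc18a3 or Slc5a7, the genes of acetylcholine neurons, was found in 2 and 18. At least 3 UMIs in sum of the monoamine genes Th, Ddc, Slc18a2 and Slc6a3 were found in 4 and 3. Glra1, a glycine receptor subunit, was found in 2 and 27. Glycine neurons lie in the hindbrain and spinal cord, whose Hox genes were nearly absent from the wildtype-labelled library. Among the neuropeptides, Nts, the neurotensin gene, was called higher than in nuclei of like depth, at 80.5 and 49.1 CPM against 8.95 and 15.1 CPM, but only 10 and 19 nuclei carried it. Adcyap1 was called higher as well, at 20.1 and 22.5 CPM against 5.32 and 8.54 CPM, with a UMI in 8 and 29 nuclei.

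GABA-marked and glutamate-marked neurons differed in few genes past 2-fold. Among 1269 genes outside the transmitter genes with at least 50 UMIs over the classes in each library, 9 were higher in GABA-marked nuclei in both libraries (0.709%) and 2 were higher in glutamate-marked nuclei (0.158%). Nrxn3, a presynaptic adhesion gene at chr12:88689646-90301709, stood at 5662 and 6063 CPM in GABA-marked against 890 and 1098 CPM in glutamate-marked neurons, log2 ratios of 2.67 (2.39 to 2.96) and 2.47 (2.29 to 2.64). Across all selected neurons Nrxn3 differed little from nuclei of like depth, with log2 ratios of 0.28 and 0.16. Zfpm2, a cofactor of GATA factors, stood at 624 and 659 CPM against 125 and 144 CPM. Cacna2d3, a calcium channel subunit, stood at 510 and 489 CPM against 156 and 99.8 CPM. Sox2ot, the noncoding transcript around Sox2, stood at 881 and 552 CPM against 125 and 196 CPM, and Gm38505, which lies antisense to it, at 1015 and 420 CPM against 78.1 and 88.7 CPM. Adarb2 stood at 2579 and 2548 CPM against 953 and 884 CPM, and it helped to choose the nuclei in both classes. Genes of the rule were not left out of this comparison, and Adarb2 is among the 9 counted.

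Cacna2d1, a calcium channel subunit gene at chr5:16139372-16579509, was the leading gene of glutamate-marked neurons, at 1179 and 1172 CPM against 89.1 and 212 CPM in GABA-marked ones, log2 ratios of GABA-marked over glutamate-marked of -3.73 (-4.52 to -3.02) and -2.46 (-2.77 to -2.16). It belongs to the same subunit family as Cacna2d3, and the classes thus differed in opposite directions for these relatives. Ntng1, a netrin-G protein that binds Lrrc4c, stood at 1039 and 991 CPM in glutamate-marked against 436 and 450 CPM in GABA-marked neurons. Tafa2, Reln, Csmd1, Arpp21 and Lhfpl3 followed, all with ratios below 0 in both libraries and past 2-fold in at most 1. The median depth of the classes differed, with 3624 and 5049 UMIs in GABA-marked and 4636 and 6088 UMIs in glutamate-marked nuclei.

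Neurons with neither transmitter mark were set against the marked ones, a comparison chosen after seeing the data. Of 2552 genes, 3 were past 2-fold higher in both libraries (0.118%) and 3 lower (0.118%). Ebf2, a helix-loop-helix factor of differentiating neurons, stood at 438 and 347 CPM in nuclei with neither mark against 128 and 108 CPM in marked ones. Among the marked nuclei it was at 0 and 32.3 CPM in GABA-marked and at 336 and 244 CPM in glutamate-marked neurons. The other higher genes were 4930438E09Rik, antisense within Ebf2, and D130079A08Rik, and the lower ones were Tiam2, Sox2ot and Gm38505. These names were chosen after their values were seen. The median depth of nuclei with neither mark was 3668 and 4202 UMIs, below that of glutamate-marked nuclei in both libraries. It was below that of GABA-marked nuclei (3624 and 5049 UMIs) only in the knockout-labelled library. The part of depth in the missing marks was not tested.

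Between the libraries, the selected neurons differed in few genes once counts were scaled to CPM. Of 4757 genes with at least 100 UMIs over both libraries, 24 lay past 2-fold on the higher side in knockout-labelled nuclei (0.505%) and 8 on the lower side (0.168%), 32 in all (0.673%). The median log2 ratio was 0.01, with 5th and 95th percentiles of -0.43 and 0.50. Over the same genes in all other nuclei the median was -0.01, with percentiles of -0.18 and 0.28. The wider spread in the selected neurons goes with their smaller sums of 596392 and 1689737 UMIs. Of the 32 genes past 2-fold, 24 had the same sign in all other nuclei and 4 were past 2-fold there in the same direction. The same shares over all 4757 genes were not counted, so these numbers only describe the 32.

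**Figure D5:**
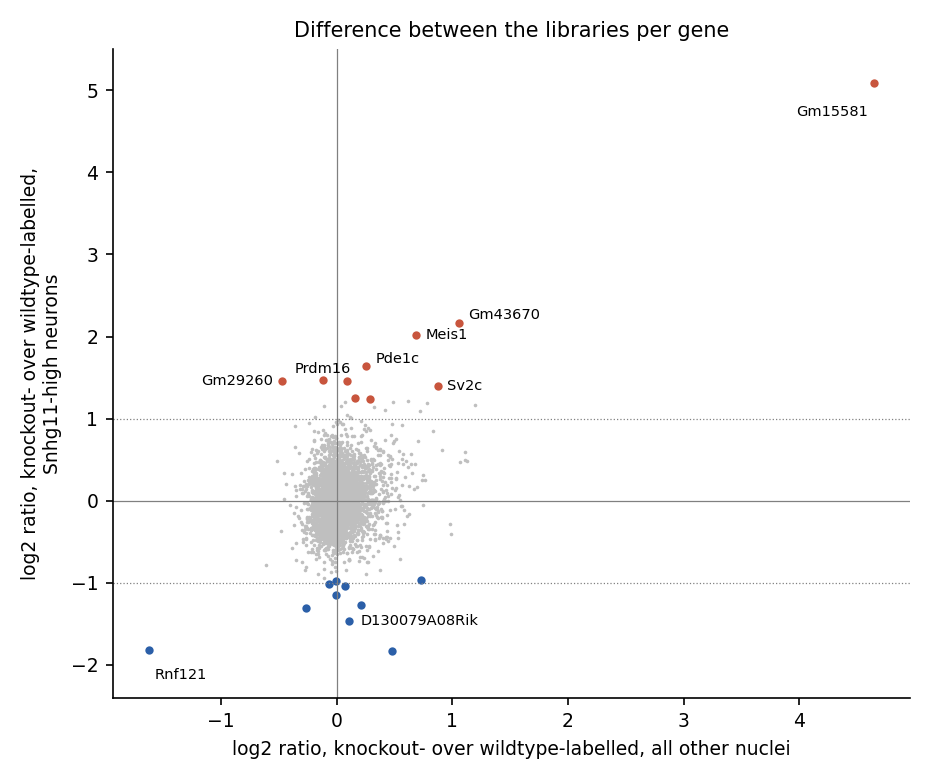
Log2 ratio of CPM, knockout-labelled over wildtype-labelled library, in all other nuclei (horizontal axis) and in Snhg11-high neurons (vertical axis) for 4757 genes, with the 10 highest in red, the 10 lowest in blue and dotted lines at 2-fold. Gm15581 and Rnf121 are displaced on both axes. Meis1 is too, but further on the vertical one, and most other named genes are displaced mainly on the vertical one.

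Genes at or near the targeted locus and a few others differed in all nuclei alike. Gm15581 stood at 3.35 and 114 CPM in the selected neurons, a log2 ratio of 5.09 (3.22 to 8.15), and at 3.61 and 90.2 CPM in all other nuclei. Cav2, with fewer UMIs than the minimum, had a log2 ratio of 4.89 (2.37 to 10.21) and 5.11 in the other nuclei. Rnf121, a ubiquitin ligase gene on chromosome 7, stood at 186 and 52.7 CPM in the selected and at 168 and 54.5 CPM in the other nuclei. The differences were thus of like size in the selected neurons and in the rest.

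Meis1 differed more in the selected neurons than in the rest. Meis1, a homeobox factor that acts with Hox proteins, at chr11:18829817-18969749, had 43 and 492 UMIs, 72.1 and 291 CPM, a log2 ratio of 2.01 (1.56 to 2.50). It was found in 22 of 147 (15.0%) and 107 of 337 (31.8%) nuclei, and in 3 (5.66%) and 6 (6.90%) reference nuclei. In all other nuclei the log2 ratio was 0.69 (0.60 to 0.78), so the interval in the selected neurons lay above it. Without the 2 and 51 selected nuclei that had a Hox or Slc6a5 UMI the log2 ratio was 1.81 (1.33 to 2.33), and without the nucleus of each library with the most Meis1 UMIs it was 2.12. The part of posterior nuclei that carry no Hox UMI was not tested.

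Among the remaining higher genes, Pde1c, a calmodulin-dependent phosphodiesterase, stood at 62.0 and 194 CPM, and the transcription factor gene Prdm16 at 20.1 and 55.6 CPM. The synaptic vesicle gene Sv2c stood at 21.8 and 57.4 CPM. Nefl, the light neurofilament gene, was past 2-fold with 30.2 and 69.2 CPM, and Il1rapl2, a synaptic adhesion gene, with 154 and 340 CPM. Among the lower genes, Tfap2b, a factor of dorsal midbrain neurons, stood at 102 and 41.4 CPM, and Samd5 at 280 and 127 CPM. In the other nuclei Samd5 stood at 85.9 and 85.3 CPM. Of the 44 fixed gene lists, including glycolysis, the citrate cycle and cholesterol synthesis, none had more than 1 gene past 2-fold in the same direction. The medians were -0.29 over 7 glycolysis genes, 0.15 over 9 citrate cycle genes and 0.15 over 11 cholesterol genes, against 0.01 over all genes.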

How the data were processed

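Nuclei of fetal mouse whole brain were profiled with the 10x 3' kit version 3.1, 1 library per genotype. The authors deposited raw UMI counts per gene and barcode (55416 features). Reads were aligned with STAR to GRCm39, per the submitters' processing notes, which name Cell Ranger 3.0.1, whereas the file headers name version 6.1.1. Annotation release, intron counting and barcode filtering are not given in the sources used here.

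Counts were summed per library over the selected nuclei and each reference set, scaled to CPM, and compared as log2 ratios with exact 95% binomial (Clopper-Pearson) or Poisson-based counting intervals. Intervals cover counting error only. The difference of shares has a Newcombe interval. With 1 library per genotype no test was made, and a gene is called past 2-fold. Code was checked on simulated data. The members, lists and rules were chosen with earlier results of these data known. The genes named are the markers, the 20 highest and 8 lowest against nuclei of like depth (at least 100 UMIs in each library's selected nuclei), the 10 highest and 10 lowest between libraries (interval excluding 0), the 8 highest and 8 lowest between transmitter classes, up to 4 genes and those past 2-fold in each of 44 lists, and the Cav1 locus; Cdh9 and others against Snhg11-rich nuclei were chosen after their values were seen. Scrublet's automatic threshold called 2 and 1 nuclei and so did not work. No doublets were removed, and removing the top 8% of scores was an alternative. Positions are from GENCODE M39 on GRCm39, which matched 54749 features (98.8%). Promoters are from RefSeq on GRCm38.p6. Tools were Python 3.11.15, numpy 2.4.6, scipy 1.17.1, pandas 2.3.3, scanpy 1.11.5 and matplotlib 3.10.9. Some genes that this rule picks are not reported here.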

Additional observations from a re-analysis of the deposited data

How the results depend on the processing

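The higher share in the knockout-labelled library kept its direction under every alternative run, from 2.37 to 5.94 percentage points. The difference was 3.77 points with at least 1000 detected genes, 5.94 with at least 3000 UMIs and 4.87 after thinning. Genes higher and lower than the reference numbered 460 and 908 against all non-members, 5 and 62 against other nuclei with at least 6 Snhg11 UMIs, and 93 and 182 with a minimum of 500 UMIs. Between the libraries, 117 genes were higher and 32 lower with a minimum of 50 UMIs, 7 were higher with a minimum of 200, and 10 were higher in nuclei of 3000 to 6000 UMIs, an alternative added after seeing the data. With a minimum of 3 UMIs the GABA mark was met by 25.2% and 22.6% and the glutamate mark by 7.48% and 6.23%. Thinned, the marks were met by 23% and 6.74% of the knockout-labelled library. GABA-high and glutamate-high genes numbered 4 and 4 with a minimum of 3 UMIs, and 4 genes were glutamate-high with an Snhg11 minimum of 4. Of 159 values of the 20 genes named between libraries, 0 reversed and 5 left the counting interval. Median-of-ratios scaling moved the median by 0.01. No paired analysis was possible because each genotype has 1 library. The spread between animals is unknown, sparse genes are limited by depth, and the genotype cannot be told apart from the library.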
